A study of Mus musculus with 6 samples.

Results

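The Hox genes were examined in mouse lung fibroblasts from animals that had breathed room air or 10% CO2. The members are every gene whose symbol is exactly Hoxa, Hoxb, Hoxc or Hoxd followed by a number, which gave 39 protein-coding genes among the 43430 gene IDs of the count table. Antisense and opposite-strand transcripts of the same clusters were left out of the members and are described separately. Of the 39 members, 15 had enough reads to be tested for a difference between groups, 7 had a few reads, and 17 had 0 counts in all 6 libraries.

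Hox genes encode homeodomain transcription factors that give cells their address along the body axis. They lie in 4 clusters, and within each cluster the gene order follows the order of expression along the body, so that low-numbered paralog groups at the 3' end of the cluster are used toward the head and high-numbered groups at the 5' end toward the tail and in the distal limb. The lung buds from the foregut at the level where the middle groups are active, and its mesenchyme keeps a Hox pattern into adult life. Mice without Hoxa5 have a small, poorly branched lung and a malformed trachea.

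The animals were C57BL/6J males, 9 to 11 weeks of age, whose lung cells were selected on a flow sorter for PDGFRA, a growth factor receptor found on most lung fibroblasts. One group of 9 mice breathed 10% CO2 at normal oxygen for 10 days (hypercapnia) and the other 9 mice breathed room air, with no transgene, deletion or other agent named in the labels. Each library held the cells of 3 mice, so a library averages over its animals and each group has 3 libraries, M1 to M3 in room air and M4 to M6 in hypercapnia. The question addressed here is which Hox genes these sorted cells contained and whether any of them differed after CO2 exposure.

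The promoters of Hoxa5, Hoxa7 and Hoxa9 are shown because the Hoxa cluster went from its highest gene to no reads over this stretch. Each is the RefSeq window (GRCm38.p6) from 250 bases before to 50 bases after the annotated start, printed 5′ to 3′ on the gene's strand, with CG dinucleotides in capitals.
Hoxa5 promoter, chr6:52204538-52204837, minus strand: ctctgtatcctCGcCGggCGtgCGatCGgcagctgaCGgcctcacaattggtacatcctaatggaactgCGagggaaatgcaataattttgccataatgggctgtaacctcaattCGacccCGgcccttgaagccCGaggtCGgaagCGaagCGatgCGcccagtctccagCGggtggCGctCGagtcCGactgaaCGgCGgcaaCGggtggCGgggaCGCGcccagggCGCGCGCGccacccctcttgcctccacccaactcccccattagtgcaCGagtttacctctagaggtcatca
Hoxa7 promoter, chr6:52218524-52218823, minus strand: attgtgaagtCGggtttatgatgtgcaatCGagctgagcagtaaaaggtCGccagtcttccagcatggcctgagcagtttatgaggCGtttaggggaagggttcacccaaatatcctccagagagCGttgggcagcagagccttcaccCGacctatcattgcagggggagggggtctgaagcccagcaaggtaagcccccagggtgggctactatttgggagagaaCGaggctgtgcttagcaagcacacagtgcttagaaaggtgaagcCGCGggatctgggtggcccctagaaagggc
Hoxa9 promoter, chr6:52227321-52227620, minus strand: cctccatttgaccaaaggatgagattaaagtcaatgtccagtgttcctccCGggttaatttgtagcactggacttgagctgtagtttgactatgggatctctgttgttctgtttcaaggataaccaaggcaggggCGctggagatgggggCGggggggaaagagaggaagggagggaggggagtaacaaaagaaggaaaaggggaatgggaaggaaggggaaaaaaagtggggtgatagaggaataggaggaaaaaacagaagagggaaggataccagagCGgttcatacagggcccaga
The Hoxa5 window held 29 CG dinucleotides, the Hoxa7 window 9 and the Hoxa9 window 4. The median over all 32851 RefSeq windows was 7. Only the Hoxa5 window lies at the 5' end of the gene model (GENCODE M21) used here for exon lengths. The Hoxa7 and Hoxa9 windows lie inside their models, whose 5' ends are at 52221854 and 52231089. Their CG counts therefore describe RefSeq starts within the genes. RefSeq windows were at hand for 22 of the 39 members, 24 windows in all. The 8 windows of tested members had a median of 13.5 (9 to 29) and the 16 windows of members that were not tested had a median of 17.5 (4 to 45). On either strand, the letters CCAAT were found in 15 of the 24 Hox windows and in 37.4% of all windows. TATAAA was found in 4 Hox windows and in 13.6% of all windows, and the Pbx-Hox site TGATNNAT in 4 Hox windows and in 8.85% of all windows. GGGCGG was found in 10 Hox windows and in 35.7% of all windows, and CACGTG in 5 Hox windows and in 7.15% of all windows. These matches describe the windows and are not evidence of binding.

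The clusters also hold microRNA genes of 2 families, miR-10 and miR-196, whose mature forms are known to target Hox mRNAs. Their mature sequences from RefSeq (GRCm38.p6) are printed 5′ to 3′ with the seed, bases 2 to 8, in capitals, to show that the copies in different clusters share a seed.
miR-10a-5p: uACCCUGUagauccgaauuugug
miR-10b-5p: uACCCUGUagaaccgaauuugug
miR-196a-5p: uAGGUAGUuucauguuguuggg
miR-196b-5p: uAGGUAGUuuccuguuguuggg
Mir10a lies in the Hoxb cluster and Mir10b in the Hoxd cluster, while the miR-196 genes lie in the Hoxb, Hoxc and Hoxa clusters. Mir10a had 2, 7 and 6 counts in the room air libraries and 0 counts in each hypercapnia library, and was named here after its values were seen. Mir10b and the 3 miR-196 genes had 0 counts in all libraries. The kit named in the labels is one for long RNA, so these counts do not measure the mature microRNAs.

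Hox expression in the sorted fibroblasts was almost entirely a matter of the Hoxa and Hoxb clusters. The Hoxa cluster (chr6:52155590-52260880, mm10, minus strand, 11 genes) held 67.9% ± 2.79 (SD, n = 3) of the summed Hox level per length in room air and 70.2% ± 2.63 (SD, n = 3) in hypercapnia. The Hoxb cluster (chr11:96194316-96368256, plus strand, 10 genes) held 31.5% ± 2.93 and 29.4% ± 2.68. The level per length is CPM, a gene's reads scaled to a common library size, divided by the kilobases of annotated exon, and it is used wherever genes are compared with each other.

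Related Hox genes have similar sequences, most of all in the homeobox, the part that encodes the DNA-binding homeodomain. A homeobox of 180 bases was found in all 39 members, and over the 42 pairs within a paralog group the identity of its bases lay between 67.2% and 93.9%. The longest run of identical bases between homeoboxes of any 2 tested members was 52 bases, and how the authors treated reads that map to more than 1 place is not given in the sources used here.

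The Hoxc cluster (chr15:102921103-103036852, plus strand, 9 genes) held 0.445% ± 0.189 of the Hox level per length in room air and 0.406% ± 0.0667 in hypercapnia. The Hoxd cluster (chr2:74668310-74765142, plus strand, 9 genes) held 0.198% ± 0.117 and 0.0698% ± 0.0751. In counts, the 9 Hoxc genes together had 48 in room air and 44 in hypercapnia, and the 9 Hoxd genes 22 and 8, against 6113 and 6042 for Hoxa. Of the 15 tested members, 7 were Hoxa genes, 7 were Hoxb genes (Hoxb2 to Hoxb8) and 1 was Hoxc4.

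**Figure D1:**
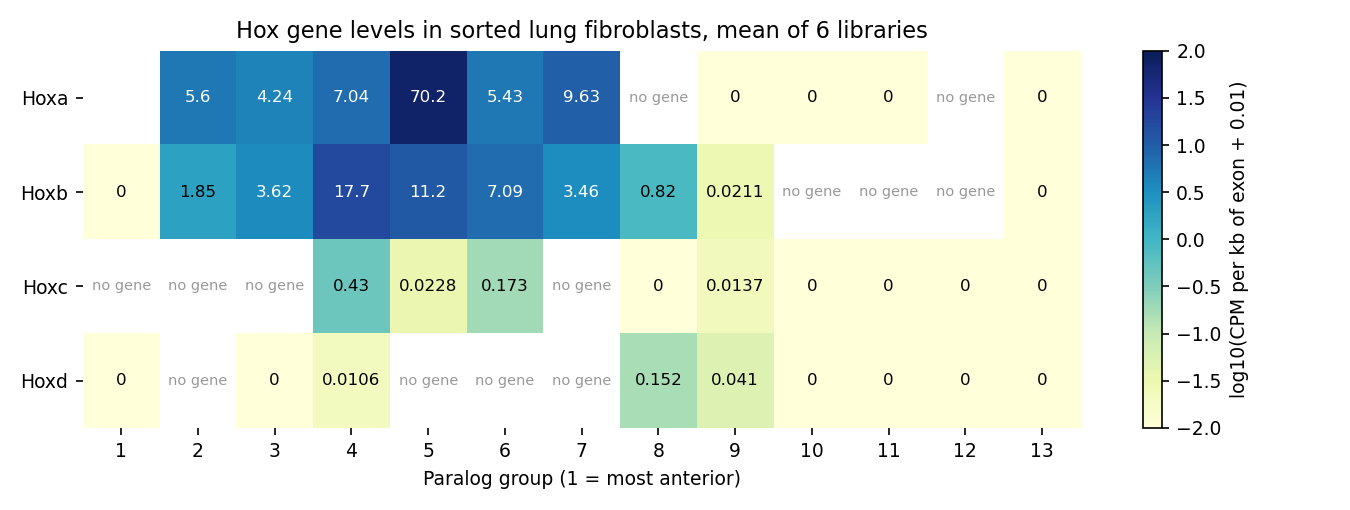
Levels of the Hox genes as CPM per kilobase of exon, mean of 6 libraries, with clusters in rows and paralog groups in columns. The colour shows log10(CPM per kb + 0.01). A blank cell was left out. The filled block runs from Hoxa2 to Hoxa7 and from Hoxb2 to Hoxb8, with its maximum of 70.2 at Hoxa5, and the Hoxc and Hoxd rows do not exceed 0.43.

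Hoxa5, the member with the clearest role in lung and airway formation, was by far the most abundant Hox gene. Its CPM was 152, 132 and 130 in the room air libraries and 133, 123 and 119 in the hypercapnia libraries. Only M1 stood above the others, and the values of the groups overlapped. Per length it reached 70.2 CPM per kb over the 6 libraries, above 96.0% of the 12940 tested genes with a length, whose median was 5.73 CPM per kb. This single gene held 42.9% to 51.8% of the Hox level per length in a library.

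Hoxb4, a gene best known from blood stem cells and the hindbrain, came next at 17.7 CPM per kb and held 11.9% of the Hox level. Hoxb5, a paralog of Hoxa5 that acts with it in lung mesenchyme, followed at 11.2 CPM per kb and Hoxa7 at 9.63. Hoxb6 and Hoxa4 were level at 7.09 and 7.04 CPM per kb. Their order was not fixed, since Hoxb6 had the higher mean in room air (8.24 ± 0.535 against 7.52 ± 1.6, SD, n = 3) and Hoxa4 in hypercapnia (6.57 ± 0.444 against 5.94 ± 1.58).

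Hoxa2 (5.6), Hoxa6 (5.43), Hoxa3 (4.24), Hoxb3 (3.62) and Hoxb7 (3.46 CPM per kb) formed the next step, near or below the median tested gene. Hoxb2 (1.85) and Hoxb8 (0.82 CPM per kb) were lower, and Hoxc4 was the lowest tested member at 0.43 CPM per kb, above 5.34% of tested genes. The places of several genes depend on the length used. With the same CPM divided by only the exon bases not shared with another gene, Hoxa7 (12.1 CPM per kb) was above Hoxb5 (11.6). Hoxa4 (8.38) was then also above Hoxb6 (7.09). Any reads counted on shared bases remain in these values, which can therefore be too high. The exons of Hoxb3 overlap the opposite-strand transcript Hoxb3os over 52.9% of their bases. The full CPM of Hoxb3 divided by its unshared bases alone gave 7.69 CPM per kb.

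Nearly all Hox counts fell on paralog groups 1 to 8. The 23 members of groups 1 to 8 included all 15 tested genes, whereas the 16 members of groups 9 to 13 had 10 counts in total out of 57004192, and 13 of those 16 had none. The members without a single count were Hoxa9, Hoxa10, Hoxa11 and Hoxa13, Hoxb1 and Hoxb13, Hoxc8 and Hoxc10 to Hoxc13, and Hoxd1, Hoxd3 and Hoxd10 to Hoxd13. Many of these pattern the limbs, the urogenital tract and the tail end of the trunk. A count of 0 over all libraries allows up to 3 counts, that is 0.0526 CPM (counting error only). For Hoxd3 the exons overlap other annotated genes over 62.8% of their bases, so reads there may have been assigned elsewhere or dropped.

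In the Hoxa cluster the step from Hoxa7 to Hoxa9 was abrupt. Hoxa7 had 1587 counts over the 6 libraries and Hoxa9 had 0, although their GENCODE M21 models are 1.25 kb apart. The RefSeq start of Hoxa7 lies inside its model, so the distance depends on the start used. Per length, and with 3 counts over all libraries as the floor, Hoxa7 was at least 1026-fold higher than Hoxa9. In the Hoxb cluster the signal declined over several genes, from Hoxb4 (17.7) through Hoxb5 (11.2), Hoxb6 (7.09), Hoxb7 (3.46) and Hoxb8 (0.82) to Hoxb9 (0.0211 CPM per kb). Hoxb8 had 125 counts and Hoxb9 3, with 5.31 kb between them.

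At the 3' end of the Hoxb cluster the signal also stopped between neighbours. Hoxb1, a hindbrain gene that responds to retinoic acid, had 0 counts. Hoxb1 lies 11.7 kb from Hoxb2, which had 368 counts. The few reads of the Hoxc and Hoxd clusters other than Hoxc4 fell on Hoxc6 (22 counts in all), Hoxd8 (23), Hoxd9 (5), Hoxc5 (4), Hoxc9 (2) and Hoxd4 (2). All 5 counts of Hoxd9 came from M2 and both counts of Hoxd4 from M6.

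**Figure D2:**
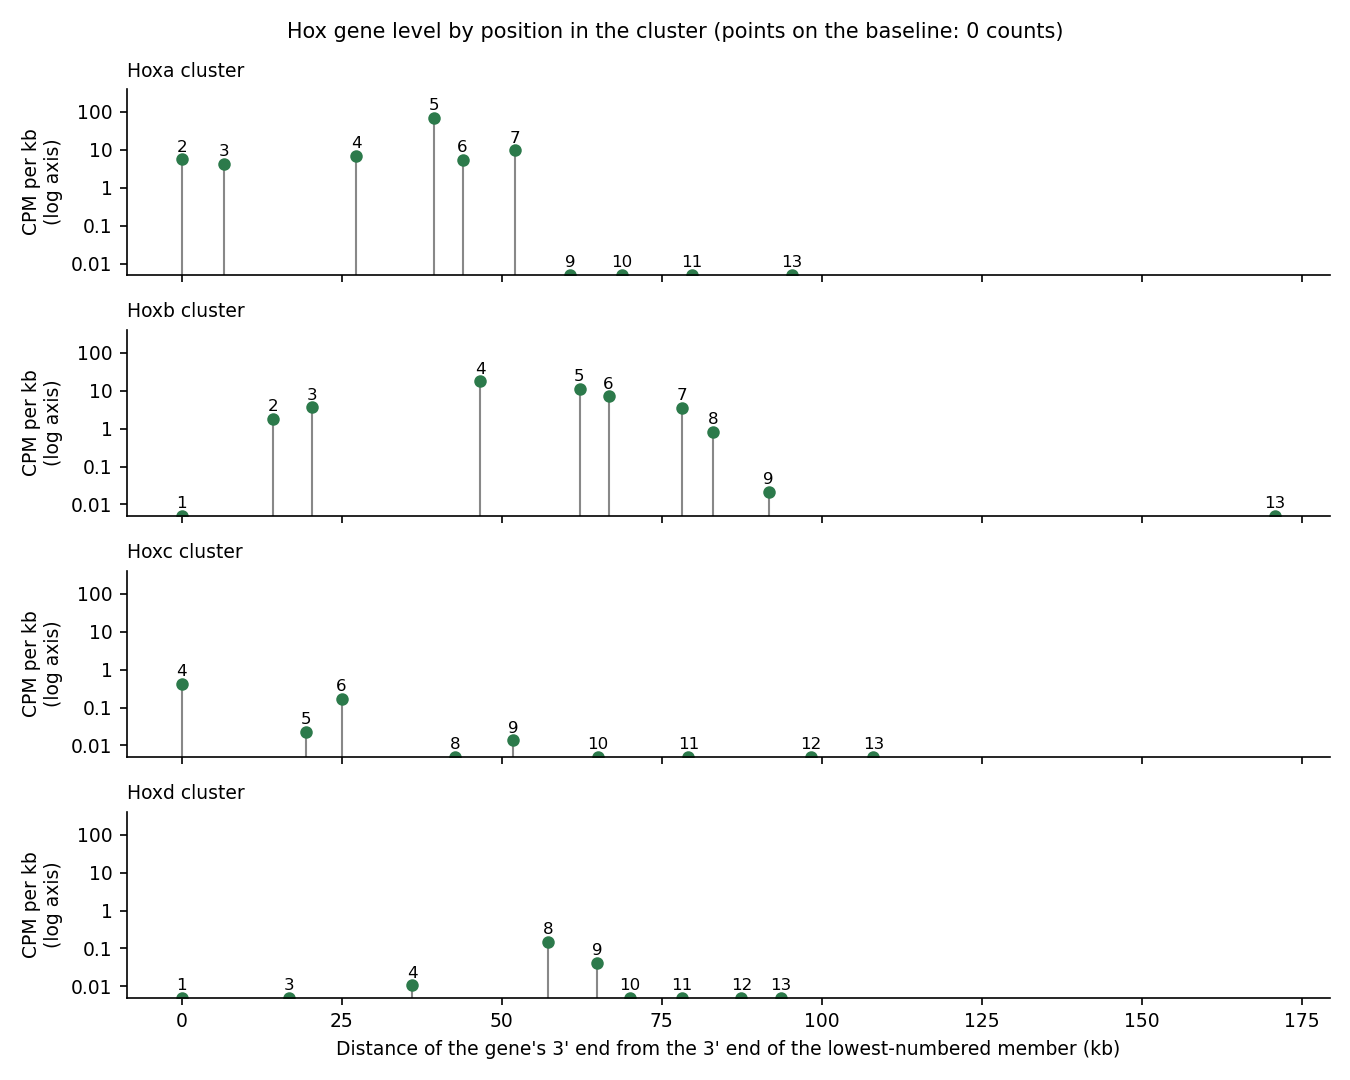
Levels of the Hox genes shown (CPM per kb, mean of 6 libraries, log axis) against the distance of its 3' end from the 3' end of the lowest-numbered member shown of its cluster, in kb. Numbers above the points are paralog groups and points on the baseline had 0 counts. In the Hoxa cluster Hoxa2 to Hoxa7 are above 1 CPM per kb and every gene from Hoxa9 on is at 0.

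Summed over clusters, paralog group 5 (Hoxa5, Hoxb5, Hoxc5) held 54.7% ± 3.66 of the Hox level per length in room air and 53.9% ± 4.12 in hypercapnia (SD, n = 3). Group 4 held 16.4% ± 0.43 and 17.3% ± 0.726. Groups 7, 6, 2 and 3 held 8.67%, 8.13%, 5.58% and 5.26% in room air and 8.74%, 8.79%, 4.24% and 5.21% in hypercapnia. Group 8 held 0.542% in room air and 0.744% in hypercapnia. The profile over paralog groups was thus dominated by the middle groups in both conditions.

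Hypercapnia changed none of the Hox genes beyond the test's threshold. By edgeR's quasi-likelihood test with Benjamini-Hochberg adjustment over all 13005 tested genes, 0 of the 15 tested members were called, where 1.22% of all tested genes were called (0.523% higher and 0.7% lower). The counts behind these shares were 68 higher and 91 lower genes, and 97 higher and 75 lower when library totals alone set the scale. In all, 24 genes were called without M2, 27 without M5 and 42 without M6. The lowest adjusted p of a member was 0.342 (Hoxb2). At an unadjusted p under 0.05 there were 2 members, Hoxb2 and Hoxb5 (13.3% of the 15), where 12% of all tested genes passed. DESeq2 and limma-voom also called 0 members, each with 2 at an unadjusted p under 0.05.

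The groups did not overlap in 1 member, Hoxb2 (6.67%), where 18% of all tested genes had no overlap. Of the 15 log2 differences 11 were negative and 4 positive, with a median of -0.14 against 0.01 over all tested genes. All 15 lay between -0.91 and 0.69. The 95% intervals of 9 members lay wholly within a 2-fold change in either direction. For the other members, Hoxb8 most of all with an interval reaching 5.02-fold, the interval reached past 2-fold in at least 1 direction.

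**Figure D3:**
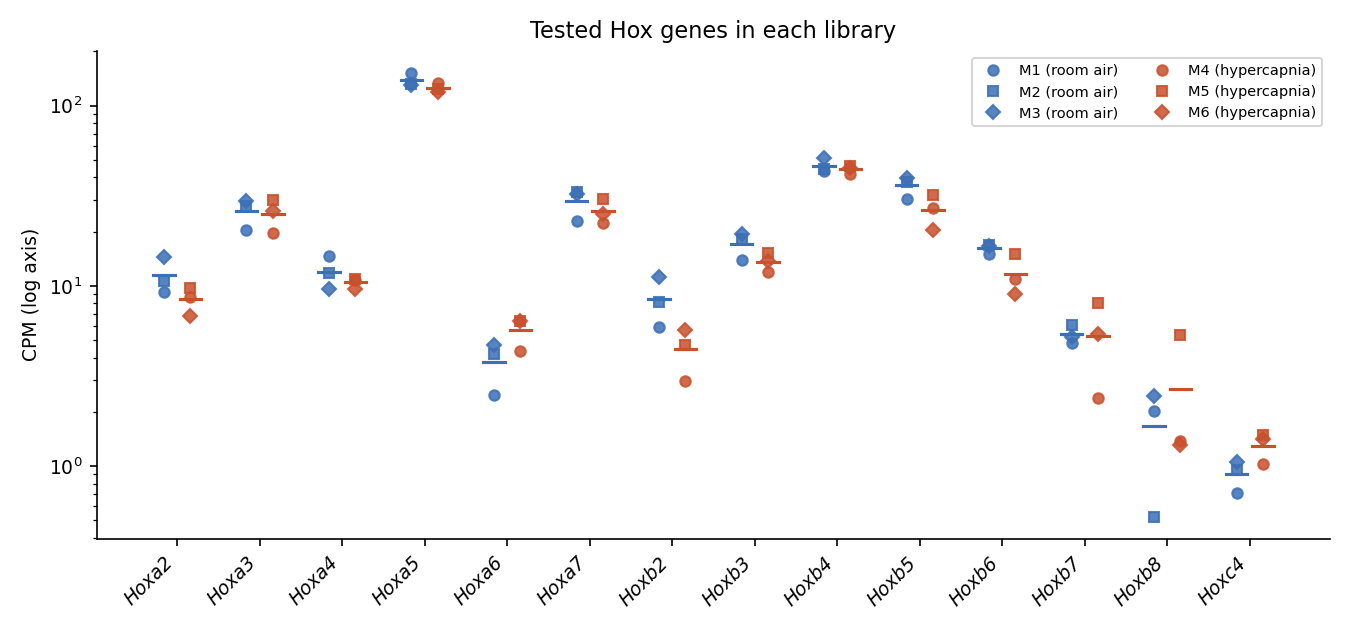
CPM (log axis) of 14 tested Hox genes in each library, room air in blue and hypercapnia in orange, with a line at each group mean. The groups overlap in every gene shown except Hoxb2.

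In the Hoxa cluster the groups overlapped at every tested gene. The summed CPM of the 11 genes was 225, 222 and 222 in room air and 202, 215 and 196 in hypercapnia, a ratio of 0.915. With the scaling factors used here all 3 hypercapnia values lay below the room air values, and Hoxa5 made up most of each sum. With library totals alone as the scale, M5 lay within the room air range. For Hoxa5 itself the log2 difference was -0.14 (SE 0.11, 95% interval -0.39 to 0.11, adjusted p = 0.71), the narrowest interval of any member. In this fit the interval leaves out a rise of more than 1.08-fold and a fall to less than 0.763 of the room air level. These bounds do not carry over to fits with other scaling or with the endothelial covariate.

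Hoxa7, which patterns the trunk skeleton with its neighbours, had 23.0, 33.1 and 32.4 CPM in room air and 22.3, 30.5 and 24.9 in hypercapnia. M1 and M4 were its lowest libraries, 1 in each group, and the log2 difference was -0.19 (SE 0.19, adjusted p = 0.789). Its exons share 20.4% of their bases with the opposite-strand transcript Hoxaas3. Hoxa3, needed for the thymus, parathyroid and throat, had 20.3, 27.6 and 29.7 CPM in room air and 19.6, 29.9 and 26.0 in hypercapnia. Its log2 difference of -0.04 (SE 0.21) turned to 0.02 with library totals alone as the scale, so it has no direction, and 27.1% of its exon bases are shared with other genes.

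Hoxa2, which sets the identity of the second pharyngeal arch, had 9.2, 10.7 and 14.4 CPM in room air and 8.66, 9.75 and 6.84 in hypercapnia. The groups overlapped and the log2 difference was -0.45 (SE 0.27, adjusted p = 0.581). Hoxa2 shares 15% of its exon bases with the same-strand gene model Gm28308. Hoxa4, with 16% of its exon bases shared with an opposite-strand gene model, had 14.6, 11.8 and 9.55 CPM in room air and 10.8, 10.9 and 9.65 in hypercapnia. Its log2 difference was -0.19 (SE 0.24, adjusted p = 0.836), and the room air libraries spanned all of the hypercapnia values.

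Hoxa6 was 1 of the 4 members with a positive difference. It had 2.48, 4.2 and 4.67 CPM in room air and 4.33, 6.4 and 6.37 in hypercapnia, so the lowest hypercapnia library, M4, lay within the room air range. The log2 difference was 0.59 (SE 0.39, adjusted p = 0.614). Hoxa6 rests on few reads, 276 counts over all libraries.

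The Hoxb cluster held the members with the smallest p-values. Its summed CPM was 115, 132 and 146 in room air and 98.7, 126 and 101 in hypercapnia, a ratio of 0.827, with M5 inside the room air range. Hoxb2, a hindbrain segment gene, had 5.9, 8.09 and 11.2 CPM in room air and 2.96, 4.72 and 5.72 in hypercapnia. The highest hypercapnia library, M6, was just below the lowest room air library, M1. The log2 difference was -0.91 (SE 0.37, 95% interval -1.72 to -0.09, edgeR adjusted p = 0.342), and Hoxb2 shares 27.3% of its exon bases with Hoxb3os on the other strand.

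Hoxb5 had 30.3, 37.9 and 39.9 CPM in room air and 26.9, 31.8 and 20.3 in hypercapnia. M5 lay above M1, so the groups overlapped, and the log2 difference was -0.45 (SE 0.19, 95% interval -0.88 to -0.03, edgeR adjusted p = 0.369). Hoxb5 shares 3.59% of its exon bases with Hoxb5os on the other strand. Its paralog Hoxa5 had a difference of -0.14 in the same fit. Whether the paralogs differed from each other in response was not tested. Hoxb6, its neighbour and a gene of the limb and trunk, had 15, 16.9 and 16.7 CPM in room air and 10.9, 15.1 and 9.0 in hypercapnia, with a log2 difference of -0.47 (SE 0.24, adjusted p = 0.474). In both genes M6 was the lowest library and M5 reached the room air range.

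Hoxb4 had the most even values of the cluster, 43.4, 44.6 and 51.4 CPM in room air and 42.0, 46.4 and 45.3 in hypercapnia. Its log2 difference was -0.06 (SE 0.13, 95% interval -0.35 to 0.23) and became 0.0 with library totals alone as the scale. Hoxb3, a regulator of the hindbrain and thyroid region, had 13.9, 18.1 and 19.4 CPM in room air and 12.0, 15.2 and 13.8 in hypercapnia. The groups overlapped, since M5 was above M1, and the log2 difference was -0.33 (SE 0.21, adjusted p = 0.603).

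Hoxb7 had 4.84, 6.09 and 5.2 CPM in room air and 2.39, 8.07 and 5.44 in hypercapnia. The room air libraries all lay between the hypercapnia extremes M4 and M5, and the log2 difference of -0.02 (SE 0.43) turned to 0.06 with library totals alone as the scale. Hoxb8 had 2.01, 0.525 and 2.44 CPM in room air and 1.37, 5.32 and 1.31 in hypercapnia. M5 alone gave the higher hypercapnia mean. The log2 difference was 0.69 (SE 0.74, adjusted p = 0.8), and it was -0.3 without M5. In M5 Hoxb7 and Hoxb8 were both at their highest.

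Outside Hoxa and Hoxb the numbers were too small for a comparison to carry much. Hoxc4 had 6, 9 and 10 counts in room air and 9, 15 and 15 in hypercapnia, with a log2 difference of 0.52 (SE 0.62, 95% interval -0.85 to 1.89, adjusted p = 0.827). Hoxc6 had 12, 0 and 8 counts in room air and 2, 0 and 0 in hypercapnia. The Hoxc sum had a ratio of 0.83 (counting interval 0.552 to 1.31). Hoxd8 had 8, 6 and 3 counts in room air and 2, 0 and 4 in hypercapnia, and the Hoxd sum had a ratio of 0.327 (counting interval 0.13 to 0.787), from 22 and 8 counts, and of 0.141 without M6. These intervals cover counting error only and not the spread between libraries, and Hoxc6 and Hoxd8 were below the count filter of the test.

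Markers of a different cell type, endothelium, moved with the groups. The mean log2(CPM + 0.5) of 18 endothelial markers, all 18 of them detected, was 7.08, 6.81 and 5.31 in room air and 7.77, 7.44 and 7.08 in hypercapnia. Hoxb2 ran the other way. M3 had the most Hoxb2 and the least endothelial signal, and M4 the least Hoxb2 and the most endothelial signal. The summed CPM of the endothelial list ranged from 983 to 3506 in room air and from 3449 to 5574 in hypercapnia. All 18 log2 differences were positive, with a median of 0.88. By edgeR's test 0 of the 18 were called, where 1.22% of all tested genes were called. At an unadjusted p under 0.05 there were 12 of the 18, where 12% of all tested genes passed. The groups did not overlap in 8 of the 18, where 18% of all tested genes had no overlap.

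With the endothelial level as a covariate, the log2 difference was -0.34 (SE 0.42, adjusted p = 0.766) for Hoxb2 and -0.37 (SE 0.25, adjusted p = 0.521) for Hoxb5. Hoxa2 and Hoxb3 were also nearer 0 in that fit, at -0.16 and -0.11, and Hoxa7 was at -0.01. Other members were further from 0, among them Hoxa5 at -0.25 (SE 0.13, adjusted p = 0.382), Hoxa4 at -0.48 (SE 0.3, adjusted p = 0.48), Hoxa6 at 1.01 (SE 0.52, adjusted p = 0.37), Hoxb8 at 1.15 and Hoxc4 at 0.82. Hoxb6 was -0.47 in both fits, and Hoxa3, Hoxb4 and Hoxb7 were above 0, at 0.23, 0.09 and 0.1. The covariate itself rose with the group, from 5.31 to 7.08 over the room air libraries to 7.08 to 7.77 over the hypercapnia libraries. M3 alone had the value of 5.31. With so few libraries, this fit cannot assign a difference to CO2 exposure or to the endothelial level. The part of endothelial cells in the differences was not tested. In RNA from sorted pools, fewer cells of a type and less RNA per cell cannot be told apart. Pdgfra, the gene behind the sort, was at 3707, 3657 and 3323 CPM in room air and 3365, 3018 and 2530 in hypercapnia (adjusted p = 0.383).

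**Figure D4:**
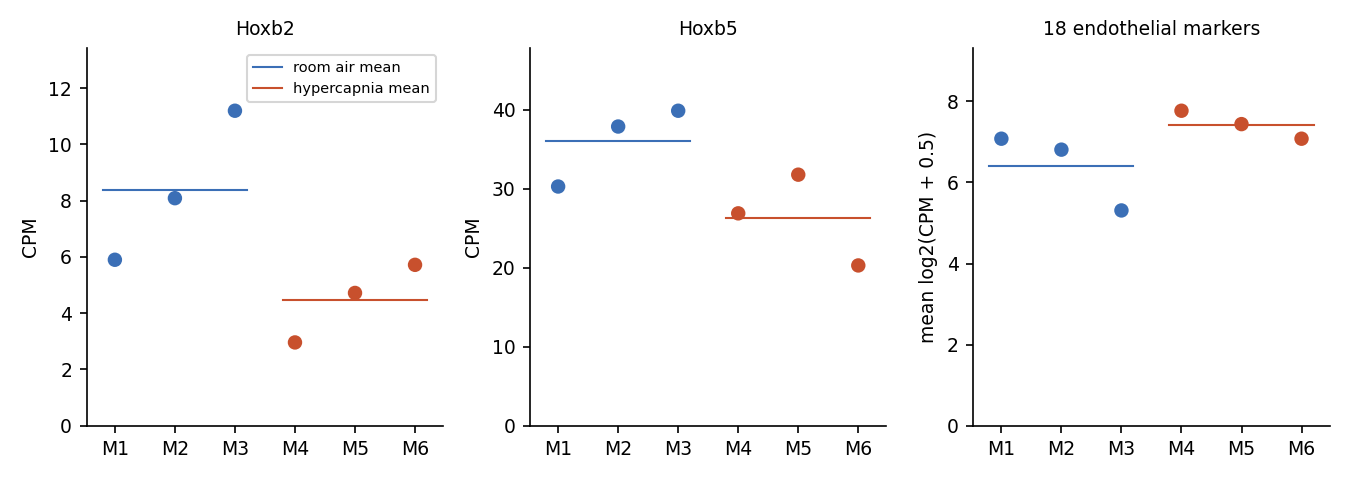
Hoxb2 and Hoxb5 (CPM) and the mean log2(CPM + 0.5) of 18 endothelial markers in each library, room air in blue and hypercapnia in orange, with lines at the group means. Hoxb2 is highest in M3 and lowest in M4, where the endothelial level is lowest (5.31) and highest (7.77).

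Hox proteins bind DNA together with TALE homeodomain partners, the Pbx, Meis and Pknox proteins. The list of 18 TALE genes also holds the Tgif, Irx and Mkx genes. Of the 18, 12 were tested and 0 were called, where 1.22% of all tested genes were called. The median log2 difference of the 12, some of them Tgif, Irx or Mkx genes, was -0.01. Meis1, a partner named after its values were seen, had 118, 104 and 106 CPM in room air and 117, 112 and 99.8 in hypercapnia. Pknox2 had the smallest p of the list, with 96.5, 91.4 and 79.9 CPM in room air and 77.6, 71.6 and 65.4 in hypercapnia. Its groups did not overlap, and the log2 difference was -0.32 (SE 0.12, adjusted p = 0.295).

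Polycomb complexes keep silent Hox genes repressed, and Trithorax complexes keep active ones open. All 28 Polycomb genes listed were tested and 0 were called, with a median log2 difference of 0.01. The smallest p-values were those of Phc2 (-0.33, adjusted p = 0.21), Phf19 (1.86, adjusted p = 0.261) and Scmh1 (0.4, adjusted p = 0.28). Phf19, which helps bring Polycomb complex PRC2 to chromatin, rested on few reads, with 18, 3 and 8 counts in room air and 29, 56 and 33 in hypercapnia. All 20 genes of the Trithorax list, which also holds Dot1l, Mllt and Aff genes, were tested and 0 were called, with a median of 0.03. Over all tested genes the share called was 1.22%.

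Upstream regulators of Hox genes in the embryo include the Cdx factors and retinoic acid, which is made by Aldh1a enzymes, broken down by Cyp26 enzymes and sensed by Rar and Rxr receptors. Of 18 such genes 11 were tested and 0 were called, with a median log2 difference of -0.14. The 5 genes at 0 counts were Cdx1, Cdx2, Cdx4, Cyp26a1 and Cyp26c1. Aldh1a1 was abundant, at 2031, 1960 and 2231 CPM in room air and 2726, 2324 and 2531 in hypercapnia, with a log2 difference of 0.28 (SE 0.1, adjusted p = 0.254). Aldh1a3 had 4.25, 10.8 and 9.23 CPM in room air and 12.0, 37.8 and 22.4 in hypercapnia, with a log2 difference of 1.57 (SE 0.42, adjusted p = 0.124). The receptor gene Rarg had 147, 158 and 145 CPM in room air and 117, 133 and 124 in hypercapnia, a log2 difference of -0.27 (adjusted p = 0.333). Rxrg, another receptor gene, had 1.65, 5.88 and 2.55 CPM in room air and 1.25, 0.886 and 1.5 in hypercapnia, a log2 difference of -1.46 (SE 0.61, adjusted p = 0.362). In all, the groups did not overlap in 6 of the 11 tested genes, where 18% of all tested genes had no overlap. These were the 4 named above with Rxrb (-0.2) and Ctcf (-0.19), both named after their values were seen.

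Hox5 genes are tied in the mouse lung to Wnt2 and Wnt2b signalling, elastin fibres and integrins. Of 16 genes listed for this link, 15 were tested. Among them 1 was called, Eln, which encodes elastin, where 1.22% of all tested genes were called. Eln fell, from 1768, 2236 and 2400 CPM in room air to 1006, 719 and 748 in hypercapnia, a log2 difference of -1.37 (SE 0.16, adjusted p = 0.00365), and no library overlapped. Wnt2, a mesenchymal Wnt ligand, had 118, 119 and 124 CPM in room air and 84.9, 90.9 and 102 in hypercapnia (-0.37, adjusted p = 0.166). Wnt2b had 10.4, 8.3 and 13.1 CPM in room air and 17.1, 26.3 and 19.6 in hypercapnia (0.99, adjusted p = 0.0949). The median of the list was -0.06, with 9 negative and 6 positive differences, and Eln is the only one of its genes that passed the threshold. At an unadjusted p under 0.05 by edgeR's test there were 7 of the 15, where 12% of all tested genes passed. The groups did not overlap in 6 of the 15, where 18% of all tested genes had no overlap. The list was chosen with earlier results of these data known.

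**Figure D5:**
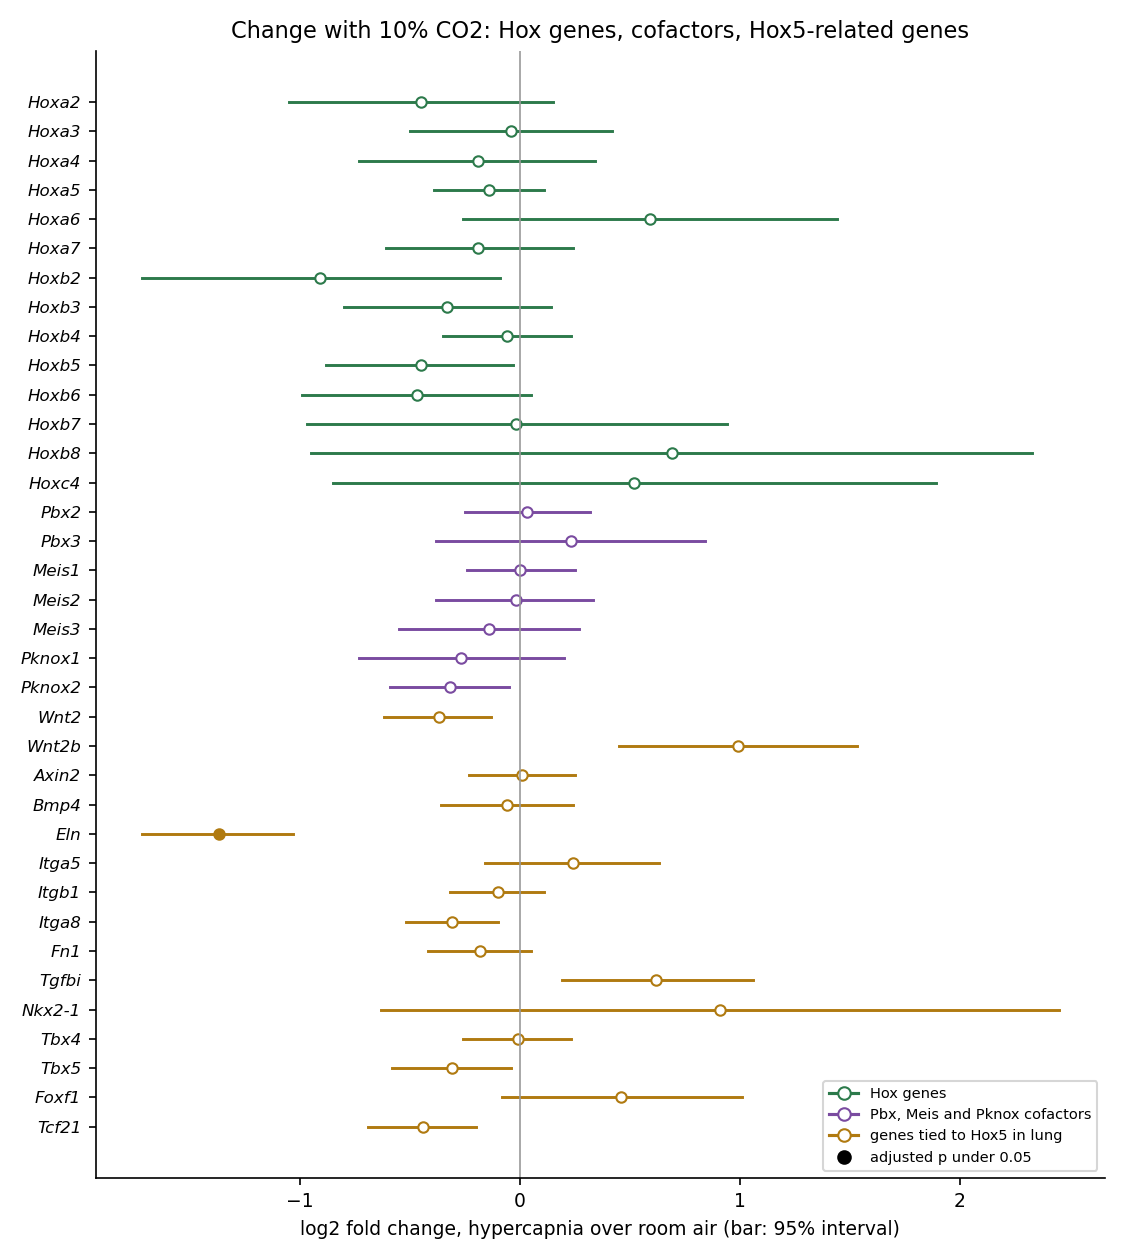
Log2 fold change, hypercapnia over room air, with its 95% interval for 14 tested Hox genes, 7 Pbx, Meis and Pknox cofactors and 15 genes tied to Hox5 in lung. Filled points mark an adjusted p under 0.05, which Eln alone reached in this set, at -1.37. Among the Hox genes shown only the Hoxb2 and Hoxb5 intervals leave out 0.

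The clusters also hold 45 other annotated transcripts, of which 8 were tested, 31 had 0 counts and 0 were called. The 8 tested transcripts lie in the Hoxa and Hoxb clusters. Hotairm1, a noncoding RNA of the Hoxa cluster, had 6.84, 5.36 and 5.09 CPM in room air and 3.53, 6.3 and 5.81 in hypercapnia (-0.14, adjusted p = 0.933). Hoxb3os, which overlaps Hoxb2 and Hoxb3, had 0.826, 1.37 and 0.955 CPM in room air and 1.6, 1.08 and 3.56 in hypercapnia (0.98, adjusted p = 0.621). The strand setting of the counting is not given in the sources used here, so reads of these pairs cannot be told apart.

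The coding genes that flank the clusters were also counted. Of 16 neighbours 11 were tested, 2 had 0 counts and 0 were called, with a median log2 difference of -0.01. Evx1 and Evx2, homeobox genes at the 5' ends of the Hoxa and Hoxd clusters, were the neighbours with 0 counts. Hnrnpa3, an RNA-binding protein gene near the Hoxd cluster, had 224, 189 and 187 CPM in room air and 166, 148 and 166 in hypercapnia (-0.32, adjusted p = 0.277).

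Total counts ran from 8999780 to 10198336 per library, which is above the average of 5000000 to 7500000 aligned reads that the labels give. No source used here says why, so what 1 count stands for is not certain, and the counting intervals and floors take each count as 1 read. On that basis 3 counts in a library correspond to 0.294 to 0.333 CPM. The sort was checked by markers. The summed CPM of 9 fibroblast genes was between 26765 and 31062, that of 8 epithelial genes between 385 and 674 and that of 6 leukocyte genes between 10.7 and 60.5, with Cd3e at 0. The fibroblast markers did not share 1 direction, with 5 negative and 4 positive differences and a median log2 difference of -0.03. Of the 9, 1 was called, where 1.22% of all tested genes were called. At an unadjusted p under 0.05 by edgeR's test there were 4 of the 9, where 12% of all tested genes passed. The groups did not overlap in 2 of the 9, where 18% of all tested genes had no overlap. Npnt, which encodes the matrix protein nephronectin, fell from 6647, 6613 and 6098 CPM to 5219, 4401 and 4658 (-0.44, SE 0.09, adjusted p = 0.0474). That call was lost without M1, M2, M3, M5 or M6 (adjusted p 0.054 to 0.26) and with RLE scaling factors (0.0521). Tcf21, a lung fibroblast transcription factor, had a log2 difference of -0.44 (adjusted p = 0.101) with no overlap, and Pi16, a marker of adventitial fibroblasts, one of 0.69 (adjusted p = 0.186). The 7 pericyte and smooth muscle markers summed to 242 to 274 CPM in room air and 325 to 362 in hypercapnia, and 0 of them were called. Of the 6 tested, 3 were positive and 3 negative, with a median of 0.18. At an unadjusted p under 0.05 by edgeR's test there were 3 of these 6, where 12% of all tested genes passed. The groups did not overlap in 4 of the 6, where 18% of all tested genes had no overlap. Abcc9 (0.54, adjusted p = 0.0682) and Kcnj8 (0.73, adjusted p = 0.0841) made up most of the sum, while Myh11, a smooth muscle myosin, had 7.9, 5.99 and 9.87 CPM in room air and 4.22, 3.84 and 4.22 in hypercapnia (-0.95, adjusted p = 0.235). The 4 mesothelial markers summed to 59.5 CPM in M4 and to between 7.58 and 23.6 in the other libraries. The part of these cells in the Hox values was not tested.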

How the data were processed

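The authors deposited whole-number counts per Ensembl gene ID in 1 table of 6 columns, with no normalization. The submitters' processing notes name HTSeq, TopHat2 2.1.0, FastQC, bcl2fastq 2.17.1.14 and the mm10 build. For the annotation, the strand setting and the handling of reads with several matches, the sources used here state nothing. Column names give the group but not the sample, so columns were assigned to groups only.

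Symbols, positions and exon lengths came from GENCODE M21, which named 42546 of the 43430 IDs. Counts were tested with edgeR 4.0.16 (quasi-likelihood F-test, two-sided, 4 residual degrees of freedom, R 4.3.3) on all 6 libraries with group as the only term. TMM factors lay between 0.943 and 1.05, the default filter with a minimum count of 10 kept 13005 genes, and the Benjamini-Hochberg adjusted p had a threshold of 0.05. CPM uses the same effective library sizes. The chi-square per degree of freedom between replicates was 12.6 to 31.2, so no library repeated another. The script was tested on simulated data.

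Named with values are the Hox genes with at least 10 counts, and from each related list every called gene and up to 4 genes of smallest p. Members and lists were chosen with earlier results of these data known. Alternatives were other scaling factors and filters, DESeq2 1.42.0, limma-voom (limma 3.58.1), robust dispersion, an endothelial covariate, other lengths, and each library left out in turn. Some items are not reported here.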

Additional observations from a re-analysis of the deposited data

How the results depend on the processing

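The number of Hox genes called was 0 under all 14 alternative settings, with a lowest adjusted p of 0.247 to 0.544, and 181 of 194 pairs of a named Hox gene and a setting kept the sign of the log2 difference. The exceptions were mostly small values near 0, in 4 genes. With library totals alone as the scale, Hoxa3 was 0.02, Hoxb4 0.0, Hoxb7 0.06 and Col1a1 0.03. With the endothelial covariate, Hoxa3 was 0.23, Hoxb4 0.09, Hoxb7 0.1, Mkx -0.03, Pecam1 -0.14 and Gm11536 0.07. Pecam1 is itself 1 of the 18 markers averaged in that covariate, so its value there carries no separate information. With single libraries left out, Hoxa3 ran from -0.19 (without M1) to 0.11 (M4), and was also above 0 without M2 (0.01) and M3 (0.07). Hoxb4 ran from -0.11 (M1) to 0.02 (M3), Hoxb7 from -0.45 (M5) to 0.33 (M4), with 0.08 without M2, and Hoxb8 from -0.3 (M5) to 1.08 (M3). Col1a1 ran from -0.12 (M5) to 0.02 (M4), with 0.01 without M2, and Cbx5 from -0.0 (M2) to 0.2 (M1). Hotairm1 was 0.07 without M4. Npnt lost its call with RLE factors (adjusted p = 0.0521) and without M1, M2, M3, M5 or M6. The cause was not tested. The number of changed genes among all tested was 756 without the count filter, 435 by DESeq2 and 255 with robust dispersion, and 24 (without M2) to 148 (without M4) when a library was left out, with 27 without M5 and 42 without M6. Without division by length, the Hoxa share was 62.6% in room air and 65.0% in hypercapnia and the Hoxb share 36.7% and 34.4%. The Hoxc ratio ran from 0.673 (without M2) to 0.994 (without M1), and the Hoxd ratio from 0.141 (without M6) to 0.49 (without M5). No paired analysis was possible because the columns carry no sample numbers shared between the groups. With 3 libraries per group, members with few reads have intervals of several fold, and p-values measure the spread between pools of mice.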
